A study of Arabidopsis thaliana with 15 samples.

Results

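The SEPALLATA genes SEP1 (AT5G15800), SEP2 (AT3G02310), SEP3 (AT1G24260) and SEP4 (AT2G03710) were followed through mRNA-seq libraries of Arabidopsis thaliana seedlings that carry lesions in chromatin regulators. They were picked by locus name from the first column of the deposited count tables, and they are 4 of the 33602 loci there. The rule itself names loci and uses no measured value, though it was written with earlier results of these data known. Each of the 4 had enough counts to be tested, although SEP1 and SEP2 reached this only through the genotypes in which they were high.

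The SEP genes are the class E genes of the ABCDE model of the flower. Their MADS-domain proteins bring the class A, B, C and D proteins together in complexes that specify sepals, petals, stamens, carpels and ovules, and they cover for each other in most of these organs. In seedlings and leaves the Polycomb system, which marks histone H3 at silent developmental genes, is known to hold SEP3 and other floral organ genes down. LHP1 reads the Polycomb mark through its chromodomain, EMF1 is a plant-specific protein of the same system, and EBS and SHL are paired BAH and PHD domain proteins that read histone marks.

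RNA came from whole Col-0 seedlings grown without treatment for 3 weeks on diluted MS medium, under short days (8 h of light, 16 h of darkness). There were 5 groups, each with 3 biological repeats, which makes 15 libraries. They were wild type (WT), the single mutants lhp1 and emf1, ebs shl, and ebs shl with lhp1 added. The alleles, and whether seedlings were pooled, are not given in the labels used here. The RNeasy Plus Mini kit served for WT, lhp1 and ebs shl, and the miRNeasy Micro kit for the other groups. In every comparison across these sets the kit and the genotype cannot be told apart. The comparisons free of this are lhp1 and ebs shl with WT or with each other, and ebs shl lhp1 with emf1.

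Library totals ran from 11730989 to 16247262 counts, and repeats correlated at r = 0.972 to 0.990 on the log scale. The transcripts of the mutated genes go with the labels only in part. LHP1 averaged 19.8 ± 1.14 CPM (counts scaled to 1e+06 per library, SD, n = 3) in WT and 10.5 ± 0.384 in lhp1, but 21.1 ± 2.07 in the libraries labelled ebs shl lhp1. EBS, at 25.8 ± 1.65 CPM in WT, fell to 2.54 ± 0.846 in libraries labelled ebs shl and to 2.27 ± 0.262 in those labelled ebs shl lhp1. SHL rose in the same libraries, from 40.9 ± 2.77 to 217 ± 11.3 and 191 ± 31 CPM. EMF1 had 28 ± 0.641 CPM in WT against 22.8 ± 1.09 in emf1, a small fall (adjusted p 0.00733, and 0.0998 without WT library 2). In the other mutants EMF1 was above WT, with 46.2 ± 3.07 CPM in lhp1, 118 ± 2.48 under the ebs shl label and 77.6 ± 8.29 under the ebs shl lhp1 label. SHL was also above WT in emf1, at 75.5 ± 6.35 CPM. A transcript can persist or rise in a mutant, so LHP1 and SHL levels neither check nor overturn the names, and the groups are called the labelled double mutant (ebs shl) and the labelled triple mutant (ebs shl lhp1) below.

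The SEP genes lie on different chromosomes, SEP1 on 5, SEP2 on 3, SEP3 on 1 and SEP4 on 2 in the TAIR10.1 annotation. Their merged exons span 1535, 1523, 1271 and 1456 bases in the same order. SEP1 and SEP2 are the closest pair, with 87.1% identical bases over 750 aligned coding bases, against 72.2% to 74.3% for the other 5 pairs. The longest stretch that their exons share without a mismatch is 32 bases. How reads that match both genes were counted is not given in the sources used here. SEP1 also overlaps AT5G15790 on the opposite strand by 100 exon bases (6.51% of its exon length) and AT5G02455, a locus outside the count tables, by 449 bases (29.3%). The strand setting of the counting is not given in the sources used here. How reads from these overlaps affect the SEP1 level is therefore uncertain. AT5G15790 itself was counted at 7.63 ± 1.24 CPM in WT, 8.19 ± 0.1 in lhp1, 8.66 ± 0.701 under the ebs shl label, 2.64 ± 0.538 under the ebs shl lhp1 label and 4.23 ± 1.02 in emf1, an order unlike that of SEP1.

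In WT seedlings SEP4 was the only SEP gene above 2 CPM. Its 3 WT libraries had 9.67, 13.2 and 12.2 CPM. SEP3 had 1.63, 1.28 and 1.07 CPM, from 65 counts in all. The WT level of SEP1 was lower still, at 0.362, 0.244 and 0.377 CPM, from 16 counts. SEP2, the least abundant, had 0.0604 and 0.061 CPM in 2 libraries, a single count each, and no count in the other, where 3 counts would be 0.188 CPM. Folds of SEP2 against WT therefore rest on 2 counts and are given with an exact 95% interval that covers counting error only.

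**Figure D1:**
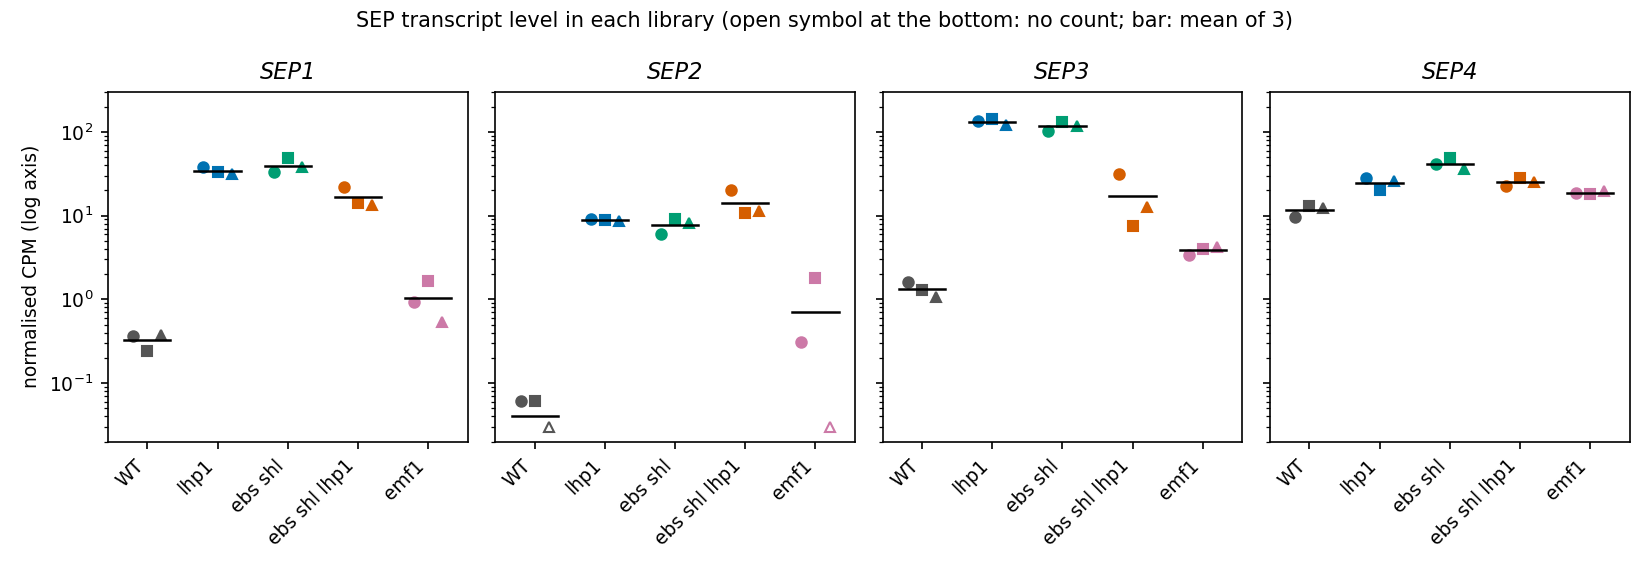
Normalised CPM of SEP1, SEP2, SEP3 and SEP4 (one panel each, log axis) in each of the 15 libraries, grouped by genotype; circles, squares and triangles are libraries 1, 2 and 3, bars are means of 3, and open symbols at the bottom are libraries without a count. SEP1, SEP2 and SEP3 lay far above WT in lhp1 and both labelled ebs shl groups, whereas SEP4 moved within a narrower range, from 9.67 to 48.7 CPM over the libraries.

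In lhp1 all 4 SEP genes rose against WT, with a median log2 fold change of 6.65. Of the 20477 tested genes 0.772% rose and 0.542% fell, with a median of 0.00. SEP3 became the SEP gene with the highest CPM. SEP3 had 134, 142 and 122 CPM in the lhp1 libraries (133 ± 9.88), which is 100-fold the WT mean. This is a log2 fold change of 6.63 ± 0.44 (SE, as for every log2 value with ±), with an adjusted p of 1.7e-06 in edgeR's quasi-likelihood test. Every lhp1 library lay far above every WT library. Since whole seedlings were sequenced, more cells with SEP transcripts and more transcript per cell cannot be told apart here or below.

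SEP1 reached 37.6, 33 and 31.7 CPM in lhp1 (34.1 ± 3.07), 104-fold its WT mean, with a log2 fold change of 6.66 ± 0.34 and an adjusted p of 3.3e-07. SEP2 reached 9.12, 8.89 and 8.59 CPM (8.87 ± 0.264), a ratio to WT of 216 with a counting interval of 59.5 to 1790. Its log2 fold change was 7.48 ± 0.84, with an adjusted p of 2.2e-04. The lhp1 libraries of both genes were close together and did not overlap with WT. SEP4 rose much less, to 27.8, 20.2 and 25.9 CPM, 2.11-fold the WT mean, with a log2 fold change of 1.08 ± 0.15 and an adjusted p of 0.00192.

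In the labelled double mutant all 4 SEP genes rose against WT as well, with a median log2 fold change of 6.67. This stands beside 5.31% of tested genes that rose and 2.52% that fell, with a median of -0.00. SEP3 had 102, 132 and 118 CPM there, 88.3-fold the WT mean, with a log2 fold change of 6.45 ± 0.43 and an adjusted p of 5.5e-07. SEP1 had 32.8, 48.2 and 38 CPM, 121-fold the WT mean, with a log2 fold change of 6.88 ± 0.34 and an adjusted p of 2.3e-08. For both genes the lowest of these libraries was far above the highest WT library. SEP2 had 6.09, 9.21 and 8.2 CPM, a ratio to WT of 190 (counting interval 52.3 to 1580), with a log2 fold change of 7.30 ± 0.85 and an adjusted p of 8.1e-05. SEP4 had its highest level of the series here, with 40.9, 48.7 and 36.2 CPM, 3.59-fold the WT mean, a log2 fold change of 1.84 ± 0.15 and an adjusted p of 3.8e-06.

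Set side by side, the labelled double mutant and lhp1 differed in SEP4 and not detectably in the other members. SEP4 was 1.7-fold higher in the labelled double mutant, a log2 difference of 0.77 ± 0.15 with an adjusted p of 0.00699, and the libraries of the groups did not overlap. The log2 difference of SEP1 was 0.22, with a 95% interval from -0.23 to 0.66 and an adjusted p of 0.642. For SEP2 it was -0.18, with an interval from -1.09 to 0.73 and an adjusted p of 0.873. For SEP3 it was also -0.18, with an interval from -0.83 to 0.47 and an adjusted p of 0.814. The interval of SEP2 reaches a difference of the size of that of SEP4, in the other direction, and so does that of SEP3, while that of SEP1 does not. Between these genotypes 3.67% of tested genes were higher and 1.39% lower in the labelled double mutant, the background for the 1 of 4 SEP genes that was higher.

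The labelled triple mutant had SEP1, SEP3 and SEP4 below the labelled double mutant, and its 3 libraries were unlike each other in SEP3. SEP3 had 31.2, 7.59 and 12.7 CPM (17.2 ± 12.5), 6.82-fold under the labelled double mutant. The log2 difference was -2.78 ± 0.34, with an adjusted p of 8.2e-06, and -3.49 without library 1. The highest of these libraries still lay under the lowest of the labelled double mutant, at 102 CPM. SEP1 had 22.1, 14.3 and 13.5 CPM, 2.38-fold lower, with a log2 difference of -1.25 ± 0.22 and an adjusted p of 1.7e-04. SEP4 had 22.3, 27.8 and 25 CPM, 1.67-fold lower, with a log2 difference of -0.74 ± 0.15 and an adjusted p of 5.2e-04. SEP2 was the exception, with 20.4, 10.7 and 11.4 CPM (14.1 ± 5.4), the highest SEP2 levels of the series. Each of these libraries was above every library of the labelled double mutant, but the log2 difference of 0.85 ± 0.42 did not pass, with an adjusted p of 0.0889, and it did pass (adjusted p as low as 0.0126) when either emf1 library 2 or 3 was left out or only these groups were fitted. Thus 3 of 4 SEP genes fell, in a comparison across the RNA kits in which 35.2% of tested genes fell and 32.8% rose.

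Against lhp1 the labelled triple mutant was lower in 2 of 4 SEP genes, with 36.6% of tested genes lower and 34.3% higher. SEP3 was 7.73-fold lower, a log2 difference of -2.96 ± 0.34 with an adjusted p of 3.6e-06, and of -3.67 without library 1. SEP1 was 2.05-fold lower, a log2 difference of -1.04 ± 0.22 with an adjusted p of 6.9e-04. For SEP2 the log2 difference was 0.67, with a 95% interval from -0.23 to 1.57 and an adjusted p of 0.168, although without emf1 library 2, or with only these groups fitted, it passed at 0.0358 at the lowest. For SEP4 it was 0.02, with an interval from -0.29 to 0.34 and an adjusted p of 0.89.

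Compared with WT, all 4 SEP genes were higher in the labelled triple mutant, with a median log2 fold change of 4.65. This is read against 34.6% of tested genes higher and 35.7% lower, again across the kits. SEP2 showed the largest log2 fold change of the members, 8.15 ± 0.81 (adjusted p 1.2e-06), a ratio to WT of 338 with a counting interval of 93 to 2800. SEP1 was 50.8-fold higher, a log2 fold change of 5.63 ± 0.35 with an adjusted p of 2.7e-08. SEP3 was 12.9-fold higher, a log2 fold change of 3.67 ± 0.44 with an adjusted p of 5.4e-06. Without library 1 of this group the SEP3 log2 fold change was 2.95. SEP4 was 2.14-fold higher, a log2 fold change of 1.10 ± 0.15 with an adjusted p of 2.3e-05.

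The same values can be read as an interaction, that is, the step from the labelled double to the labelled triple mutant less the step from WT to lhp1. With lhp1 alone SEP3 rose by 6.63 on the log2 scale, whereas it was lower in the libraries labelled ebs shl lhp1 than in those labelled ebs shl, and the interaction was -9.41 ± 0.55 (adjusted p 3.9e-07), or -10.11 without library 1 of the labelled triple mutant. It was -7.92 ± 0.41 for SEP1 (adjusted p 2.2e-07) and -6.63 ± 1.04 for SEP2 (adjusted p 1.4e-04). For SEP4 it was smaller, at -1.82 ± 0.21 (adjusted p 1.7e-05). The interaction was negative and passed for 4 of 4 SEP genes, and for 30.3% of tested genes, with 26.6% positive. Without an interaction the labelled triple mutant would hold the log2 rises of lhp1 and the labelled double mutant added together. A gene that rises strongly in both gets a large negative value unless its level goes far beyond both. SEP2 had -6.63 although its mean was 14.1 CPM in the labelled triple mutant, against 7.83 in the labelled double mutant and 8.87 in lhp1. Of the 4 groups in the interaction only the labelled triple mutant had the other RNA kit, so kit and interaction cannot be told apart. Its LHP1 transcript, at 21.1 CPM, was also not lower than in WT (19.8 CPM), unlike that of lhp1 (10.5 CPM), so the step taken as that of lhp1 rests on the label.

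**Figure D2:**
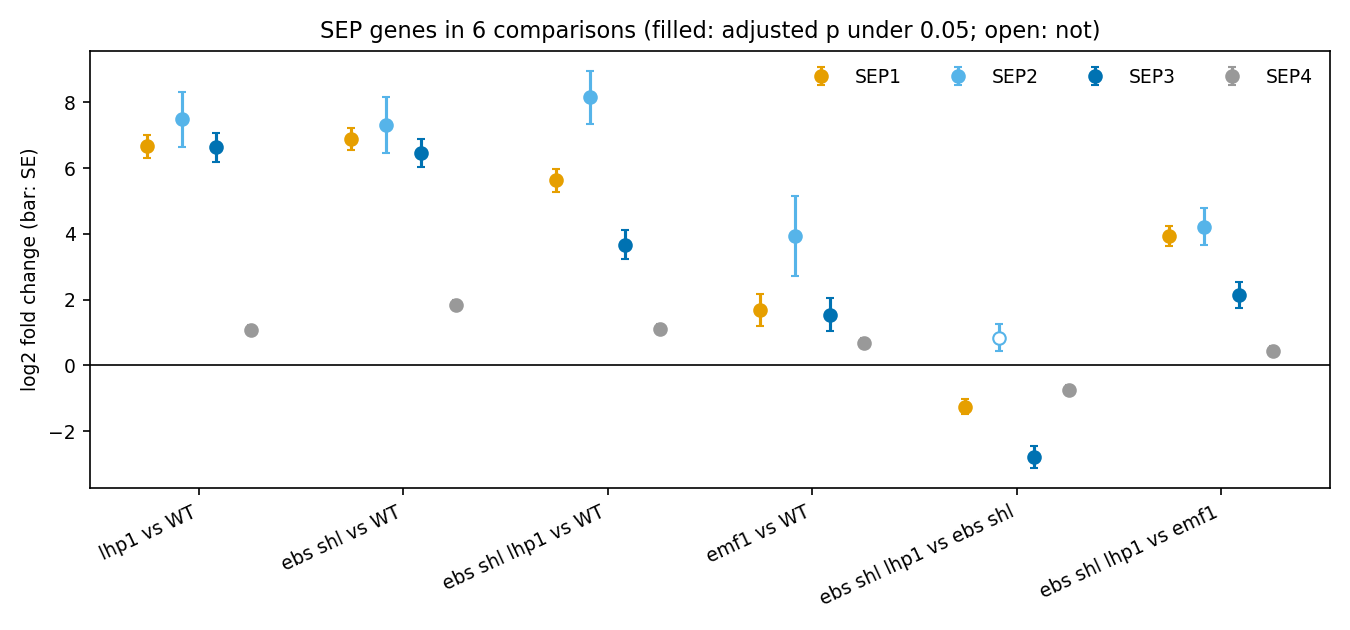
Log2 fold change (points) with its SE (bars) of each SEP gene in 6 comparisons named on the horizontal axis, the first genotype relative to the second; filled points have an adjusted p under 0.05 and open points do not. SEP1, SEP2 and SEP3 lay at 6.45 to 7.48 for lhp1 and the labelled double mutant against WT, then parted in the labelled triple mutant, with SEP2 at 8.15 and SEP3 at 3.67.

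In emf1 SEP1, SEP2 and SEP3 were far lower than in the other mutants, and SEP4 differed less. SEP4 was the most abundant member, with 18.4, 17.9 and 19.6 CPM (18.6 ± 0.84), 1.6-fold its WT mean, a log2 fold change of 0.67 ± 0.15 with an adjusted p of 0.00165. SEP3 had 3.4, 4 and 4.27 CPM, 2.93-fold the WT mean, a log2 fold change of 1.54 ± 0.50 with an adjusted p of 0.0144. For both genes each emf1 library was above each WT library. SEP1 had 0.926, 1.67 and 0.533 CPM, 3.19-fold the WT mean, a log2 fold change of 1.69 ± 0.49 with an adjusted p of 0.00822. SEP2 had 0.309, 1.82 and 0 CPM, from 4, 25 and 0 counts, so the emf1 and WT libraries overlapped. Its ratio to WT was 18.7 with a counting interval of 4.72 to 161, and the log2 fold change of 3.94 ± 1.22 had an adjusted p of 0.0117.

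Library 2 decided the SEP1 and SEP2 results in emf1. Without it the log2 fold change of SEP1 was 1.17, with an adjusted p of 0.073, and that of SEP2 was 1.82, with an adjusted p of 0.237. So 4 of 4 SEP genes passed with all libraries and 2 without that library, where 30.7% of tested genes were higher and 33.9% lower with all libraries. The median log2 fold change over the SEP genes was 1.61 in emf1, against -0.03 over all tested genes. Measured against lhp1, with 35.4% of tested genes lower and 30.6% higher, all 4 were lower in emf1, SEP1 by a log2 difference of -4.98 (adjusted p 5.1e-08), SEP2 by -3.55 (8.6e-05), SEP3 by -5.09 (2.5e-07) and SEP4 by -0.40 (0.0292). The SEP4 call was lost in 7 of the fits that left out a library, with an adjusted p of up to 0.119. Against the labelled double mutant, with 34.6% of tested genes lower and 30.2% higher, the log2 differences of emf1 were -5.20, -3.37, -4.91 and -1.17 in the same order, with adjusted p of 3.6e-08, 1.5e-04, 3.6e-07 and 1.6e-05. Without emf1 library 2 the SEP2 differences were -5.66 against lhp1 and -5.49 against the labelled double mutant.

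The labelled triple mutant and emf1 were extracted with the same kit, and all 4 SEP genes were higher in the former, where 23.6% of tested genes were higher and 20.5% lower. SEP2 had 19.9 times its emf1 mean, a log2 difference of 4.22 ± 0.56 with an adjusted p of 4.9e-05. SEP1 had 16 times its emf1 mean, a log2 difference of 3.94 ± 0.30 with an adjusted p of 7.9e-07. SEP3 was 4.42-fold higher, a log2 difference of 2.14 ± 0.39 with an adjusted p of 5.8e-04, and of 1.34 without library 1 of the labelled triple mutant. For these members, and for SEP4, the libraries of the groups did not overlap. Without emf1 library 2 the SEP2 difference rose to 6.35. SEP4 was 1.34-fold higher, a log2 difference of 0.43 ± 0.15 with an adjusted p of 0.0337, and the call was lost in 6 of the alternative fits, with an adjusted p of up to 0.199.

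Markers of other tissues differed between the groups that differ in SEP level. The summed level of the root markers IRT1, CASP1 and MYB36 was 34.2 to 59.1 CPM in WT, 27.4 to 45 in lhp1 and 40.7 to 47.4 under the ebs shl label, but 6.45 to 11.4 in the labelled triple mutant and 6.48 to 9.33 in emf1, where IRT1 had no count. Against WT 2 of the 3, IRT1 and CASP1, fell in each of the last groups, where 35.7% and 33.9% of tested genes fell. IRT1 carried most of the sum, with 27.8 CPM in WT and 0.19 in the labelled triple mutant. MYB36 went the other way, with 4.11 CPM in WT, 5.83 in the labelled triple mutant and 5.19 in emf1, which did not pass against WT but did against lhp1 and the labelled double mutant. The leaf markers RBCS1A, LHCB1.3 and CA1 summed to 31700 to 32700 CPM in WT, 25800 to 29400 in lhp1, 27600 to 33100 in the labelled double mutant, 26700 to 32100 in the labelled triple mutant and 42100 to 44400 in emf1. RBCS1A and LHCB1.3 make up most of that sum, and both rose in emf1, where 30.7% of tested genes rose. CA1 fell in the labelled triple mutant, to 989 CPM from 2840 in WT (adjusted p 2.3e-05), and it was the only leaf marker called there. So leaf transcripts were present in all groups, while IRT1 and CASP1 were lower in the groups with the miRNeasy Micro kit.

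The anther and tapetum markers A9, AMS, MS1 and TDF1 summed to 0 to 0.121 CPM in WT, 0.0609 to 0.622 in lhp1, 0.146 to 0.44 in the labelled double mutant, 0.264 to 1.04 in the labelled triple mutant and 0.218 to 0.356 in emf1. MS1 had no count in any library, A9 had none outside emf1, and 0 of the 4 had enough counts to be tested. The seed and embryo markers PAP85, CRA1, EM1, EM6 and OLEO1 summed to 0.242 to 0.305 CPM in WT, 0.311 to 1.48 in lhp1, 10.8 to 15.8 in the labelled double mutant, 16.6 to 17.3 in the labelled triple mutant and 17.8 to 28.1 in emf1. PAP85 carried most of the sum in the last 3 groups, with means of 11.6, 12 and 21.8 CPM. In the labelled triple mutant EM1 and EM6 added means of 2.28 and 2.19 CPM. In emf1 EM1 had no count and EM6 had 0.0757 CPM against 0.122 in WT. The 3 tested, PAP85, EM1 and EM6, had enough counts only through groups in which they were high. Of these, none rose in lhp1, 1 in the labelled double mutant, 3 in the labelled triple mutant and 1 in emf1, beside 0.772%, 5.31%, 34.6% and 30.7% of all tested genes. The part of these tissues in the SEP levels was not tested.

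Ordered by mean CPM, SEP1 ran from the labelled double mutant (39.7 ± 7.83) over lhp1, the labelled triple mutant (16.7 ± 4.76) and emf1 (1.04 ± 0.58) to WT (0.328 ± 0.0728). Neighbours in that order differed by the tests above except for the first pair. The call of the last pair, emf1 and WT, was lost without emf1 library 2. SEP3 ran from lhp1 over the labelled double mutant (117 ± 15.1), the labelled triple mutant and emf1 (3.89 ± 0.446) to WT (1.33 ± 0.285), and again only the first pair did not differ beyond its error. The order of SEP2 began with the labelled triple mutant, then lhp1, the labelled double mutant (7.83 ± 1.59), emf1 and WT. In the main fit the first 3 groups did not pass any test among themselves. The labelled triple mutant did pass against lhp1 and against the labelled double mutant in some alternative fits. The SEP2 call between emf1 and WT was lost without emf1 library 2. The order of SEP4 was the labelled double mutant (41.9 ± 6.32), the labelled triple mutant (25 ± 2.73), lhp1 (24.6 ± 3.95), emf1 and WT (11.7 ± 1.81), with the labelled triple mutant and lhp1 not told apart. The SEP4 call between lhp1 and emf1 was lost in some fits that left out a library.

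To compare SEP genes with one another, CPM was divided by exon length, and each gene was given as its share of the summed SEP level (CPM per kb). The summed level was 9.3 ± 1.04 CPM per kb in WT (SD, n = 3), 149 ± 7.92 in lhp1, 152 ± 21 in the labelled double mutant, 50.8 ± 14.6 in the labelled triple mutant and 17 ± 0.8 in emf1. In WT SEP4 made up 81% to 88.5% of the pool, and in emf1 69.4% to 78.5%. In lhp1 SEP3 took that place, with 68% to 73%, and in the labelled double mutant it held 59.4% to 62.7%. The pool in these genotypes was thus mostly SEP3. In lhp1 SEP1 held 14.1% to 15.8% and SEP4 9.08% to 12.7%. In the labelled double mutant SEP1 held 16% to 18% and SEP4 16.8% to 21%.

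In the labelled triple mutant no member dominated in that way. SEP2 made up 18% ± 1.55 of the pool there, against 3.37% ± 0.335 in the labelled double mutant and 3.9% ± 0.106 in lhp1. SEP1 made up 21.4% ± 1.11, and its share varied little between the 3 libraries. The shares of SEP3 and SEP4 did vary, with 36.3%, 14.4% and 23% for SEP3 and 22.6%, 46.1% and 39.6% for SEP4. Shares were compared with exact two-sided permutation tests, 40 in all, in which 3 against 3 libraries cannot give a p below 0.1, or 0.118 after adjustment over the 40. The SEP2 share of the labelled triple mutant overlapped with no other genotype (exact p = 0.1 each). The SEP3 share of the labelled triple mutant overlapped with that of WT (exact p = 0.2) and with that of emf1 (exact p = 0.4). Among the other shares, SEP1 in emf1 overlapped with WT (exact p = 0.3), as did SEP2 in emf1 with WT (p = 0.4), with lhp1 (p = 0.7) and with the labelled double mutant (p = 0.9). The rest did not overlap. The WT share of SEP2, 0.291%, rests on 2 counts.

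**Figure D3:**
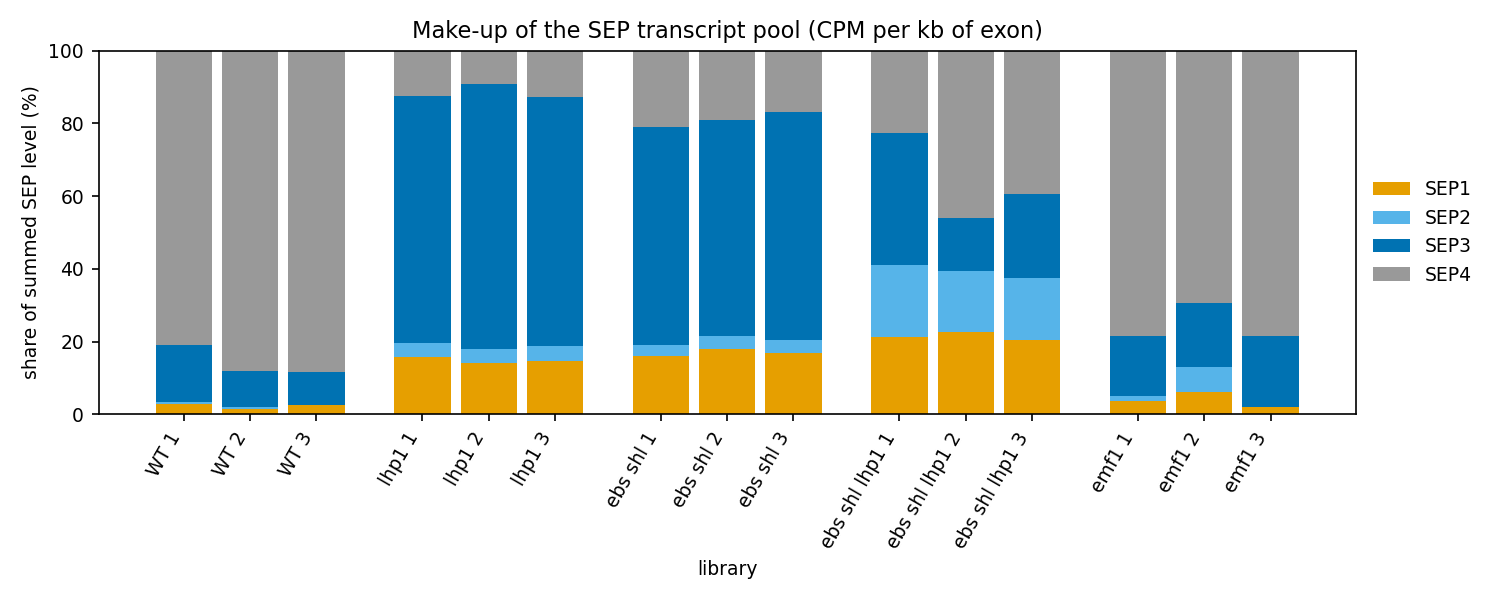
Share of each SEP gene (stacked colours, %) in the summed SEP level in CPM per kb of exon, for each of the 15 libraries. SEP4 filled most of the bar in WT and emf1, SEP3 in lhp1 and the labelled double mutant, and SEP2 reached 17% to 19.8% in the labelled triple mutant.

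In the labelled triple mutant library 1 was the highest of the 3 for several floral genes, though not for all. It was the highest for SEP1, SEP2 and SEP3 and the lowest for SEP4. AP3, a class B gene for petals and stamens, had 24.1 CPM in library 1 and 4.65 and 8.58 CPM in the others. AG, the class C gene for stamens and carpels, had 6.51 CPM there, and 1.23 and 2.97 CPM in libraries 2 and 3. FT, which encodes the mobile flowering signal, had 1.77 CPM there, and 0.19 and 0.264 CPM in the others. Other listed genes went another way at low levels. SHP1 was lowest in library 1 (0.465 CPM), and LFY (0.594 CPM) and SHP2 (0.99 CPM) were highest in library 3. In emf1 library 2 was the highest for SEP1 and SEP2, and for AP3 (1.02 CPM, against 0.309 and 0.711) and AG (0.655 CPM, against 0.154 and 0.178). What sets these libraries apart was not tested.

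Across the 15 libraries the log2 levels of the SEP genes correlated at r = 0.95 for SEP1 with SEP2, 0.94 for SEP1 with SEP3 and 0.82 for SEP2 with SEP3, and at 0.76 to 0.85 for SEP4 with the others. These r values describe 5 genotypes of 3 libraries, whose libraries share genotype, RNA kit and depth, and carry no test. Of all other tested genes AP3 came closest to SEP1 (r = 0.982), and it was also among the 5 closest to SEP2 (0.941) and SEP3 (0.939). The other genes closest to SEP1 were SVL3 (0.973), AT1G03710 (0.972), AT2G45135 (0.966) and GATA13 (0.964). AT1G03710 was also close to SEP2 (0.931), while AT2G45135 (0.949) and GATA13 (0.929) were also close to SEP3.

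The gene closest to SEP2 was AT4G05470 (0.953), which like SEP2 was highest in the labelled triple mutant, with a mean of 19.5 CPM against 12.4 in the labelled double mutant and 4.98 in lhp1. AT3G11165 (0.935) and SADHU5-1 (0.925) completed its 5. The gene closest to SEP3 was PTL (0.950), a trihelix factor of petal and sepal development, and FT (0.928) was the fifth. The genes closest to SEP4 shared no name with those lists. They were AT1G11070 (0.931), AT2G35820 (0.914), HB-3 (AT2G33880, 0.901), AT1G61410 (0.898) and AT1G20120 (0.897). AT1G11070, like SEP4, was highest in the labelled double mutant, at 21.1 CPM against 0.594 in WT.

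The closest relatives of the SEP genes in the MADS-box family are AP1, CAL, FUL, AGL79, AGL6 and AGL13, of which AGL79 and AGL13 had too few counts to be tested. AP1, CAL and AGL6, with 1, 2 and 4 counts in WT, were tested only through groups in which they were high. The counts and medians below therefore lean towards rises. Of the untested genes AGL13 had 8 counts in WT and none in the labelled double mutant, and AGL79 had 4 in WT and 5 in lhp1. Of the 4 tested, 3 rose in lhp1, 4 in the labelled double and 2 in the labelled triple mutant, and in emf1 none rose and 1 fell. Over all tested genes 0.772%, 5.31% and 34.6% rose in the first 3 and 33.9% fell in emf1, so the counts for the labelled triple mutant and emf1 are near the background. Their median log2 fold changes were 3.73, 4.45, 1.95 and -0.28 in that order. AP1, which sets floral meristem identity and sepals, rose from 1 count over the 3 WT libraries to a mean of 11.3 CPM in the labelled double mutant, with a log2 fold change of 8.60 ± 0.67 (adjusted p 2.2e-06) and a ratio of 546 (counting interval 97.6 to 21600). Its mean was 2.2 CPM in lhp1 (log2 fold change 6.24, adjusted p 6.4e-04) and 0.708 CPM in the labelled triple mutant (4.63, adjusted p 6.1e-04). So AP1, unlike SEP3, was higher in the labelled double mutant than in lhp1 in every library.

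FUL, which acts in flowering and fruit patterning, was the relative with the smallest called change in lhp1 and in the labelled triple mutant. It had 1.15, 0.977 and 1.32 CPM in WT and 8.52, 8.46 and 6.46 CPM in lhp1 (log2 fold change 2.76 ± 0.26, adjusted p 4.9e-05). In the labelled triple mutant it had 4.09, 1.61 and 3.76 CPM (log2 fold change 1.47 ± 0.28, adjusted p 3.5e-04). In emf1 it fell, to 1 count in each library, a log2 fold change of -3.72 ± 0.55 (adjusted p 5.1e-05), and WT was 14.5-fold higher with a counting interval of 4.71 to 72.4. FUL thus moved against the SEP genes in emf1, whose levels were above WT. CAL, the close paralog of AP1, had the smallest called change of the relatives in the labelled double mutant, 3.75 ± 1.08 on the log2 scale (adjusted p 0.0493), which passed in 5 of 20 alternative fits.

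The class B, C and D genes encode the partners of the SEP proteins. STK had too few counts, and of the other 5 (AP3, PI, AG, SHP1 and SHP2) 4 rose in lhp1, 5 in the labelled double mutant, 5 in the labelled triple mutant and 2 in emf1, with median log2 fold changes of 4.88, 5.24, 5.30 and 1.95. Over all tested genes 0.772%, 5.31%, 34.6% and 30.7% rose, so the count in emf1 is near the background. AP3, AG, SHP1 and SHP2 were tested only through groups in which they were high, so these counts and medians lean towards rises. AP3 had a single count in each WT library. It rose to 15.3, 20.9 and 19.4 CPM in the labelled double mutant, a log2 fold change of 8.05 ± 0.76 (adjusted p 1.3e-05). In the labelled triple mutant its log2 fold change was 7.47 ± 0.78 (adjusted p 1.8e-06). The ratios to WT were 301 (counting interval 102 to 1460) and 196 (66.5 to 953). In emf1 AP3 averaged 0.68 CPM, a log2 fold change of 3.31 ± 1.23 (adjusted p 0.0292), which passed in 15 of 20 alternative fits.

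AG had the largest change of the partners in lhp1, with 25.9, 22.3 and 20.5 CPM and a log2 fold change of 7.98 ± 0.68 (adjusted p 2.1e-05). Its mean was 3.57 CPM in both the labelled double and the labelled triple mutant. PI, the class B partner of AP3, followed another order than SEP3. It had 2.66, 3.78 and 2.83 CPM in WT, 22.4, 14.7 and 20.3 in lhp1 (log2 fold change 2.63 ± 0.19, adjusted p 4.3e-06), and 374, 365 and 302 in the labelled triple mutant (6.81 ± 0.20, adjusted p 1.4e-10). In emf1 PI had 171, 137 and 166 CPM, a log2 fold change of 5.67 ± 0.20 (adjusted p 1.8e-09). So in emf1 PI stood above its lhp1 libraries while AP3, SEP1, SEP2 and SEP3 stood below theirs. SHP1, which acts in fruit valve margins and ovules, had the smallest called change of the partners in the labelled double mutant (2.53 ± 0.55, adjusted p 0.0109, up to 0.0634 with a library left out) and in the labelled triple mutant (1.55 ± 0.61, adjusted p 0.0354, which passed in 14 of 20 alternative fits). SHP1 and SHP2 overlap other loci on the opposite strand, so the unknown strand setting leaves their levels uncertain too. The locus that overlaps SHP2, AT2G42835, had no count in any library.

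Upstream of the SEP genes act LFY and UFO, which specify floral meristems, the flowering signals FT and TSF with their partner FD, the promoters SOC1 and AGL24, the repressors SVP and FLC, and TFL1, which keeps inflorescences indeterminate. UFO and TSF were not tested for low counts, and LFY, FT and TFL1 were tested only through groups in which they were high. Of the other 8, lhp1 had 3 higher and 1 lower, the labelled double mutant 6 higher and 1 lower, the labelled triple mutant 4 higher and none lower, and emf1 2 in each direction. Higher over all tested genes were 0.772%, 5.31%, 34.6% and 30.7% in that order, and lower 0.542%, 2.52%, 35.7% and 33.9%. The counts in emf1 are near the background. In the labelled triple mutant 4 of the 8 rose beside 34.6% of all tested genes, and none fell beside 35.7%. With LFY, FT and TFL1 tested only through groups in which they were high, these counts and medians lean towards rises. In lhp1 1 of the 3 rises, that of AGL24, passed without WT library 1 or 3 or lhp1 library 2, since LFY (adjusted p up to 0.0823) and FT did not. In emf1 1 of the 2 rises, that of SOC1, missed the threshold without WT library 1 (adjusted p up to 0.0532). The median log2 fold changes of the 8 were 1.41, 2.12, 1.33 and -0.25. FT had the largest called change in each of the first 3. It rose from 2 counts in WT to a mean of 1.5 CPM in lhp1 (log2 fold change 4.94 ± 1.02, adjusted p 0.0281) and 2.15 CPM in the labelled double mutant (5.44 ± 0.98, adjusted p 0.00314). The lhp1 call was lost without any one WT library and without lhp1 library 1 or 2, with an adjusted p of up to 0.144. In the labelled triple mutant the log2 fold change of FT was 3.86 ± 1.16 (adjusted p 0.00849), and it missed the threshold without library 1 of that group (adjusted p 0.0986).

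SVP fell, from a mean of 93.5 CPM in WT to 66 in lhp1 (log2 fold change -0.50 ± 0.09, adjusted p 0.012) and 69.8 in the labelled double mutant (-0.42 ± 0.09, adjusted p 0.0101). Both calls were lost with single libraries left out, with adjusted p of up to 0.0716 and 0.0551. AGL24 had the smallest called rise in the labelled triple mutant, to a mean of 13.1 CPM from 7.01 in WT (0.90 ± 0.17, adjusted p 2.6e-04). In emf1 AGL24 fell to 1.24, 0.873 and 1.69 CPM (-2.48 ± 0.22, adjusted p 7.9e-07), and FLC rose to 16.5, 14.7 and 16.2 CPM from a WT mean of 5.88 (1.42 ± 0.27, adjusted p 3.7e-04). The FLC rise was not particular to emf1. Its mean was 14.5 CPM in the labelled double mutant and 48.9 CPM in the labelled triple mutant, and both were called higher than WT. In lhp1 it was 13 CPM and not called. FLC also overlaps another locus on the opposite strand. Genes that act after the SEP proteins in organ formation were CRC, SUP, SPL, KNU, NAP and DAD1. NAP was the only one with enough counts to be tested, and it passed in no comparison with WT.

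**Figure D4:**
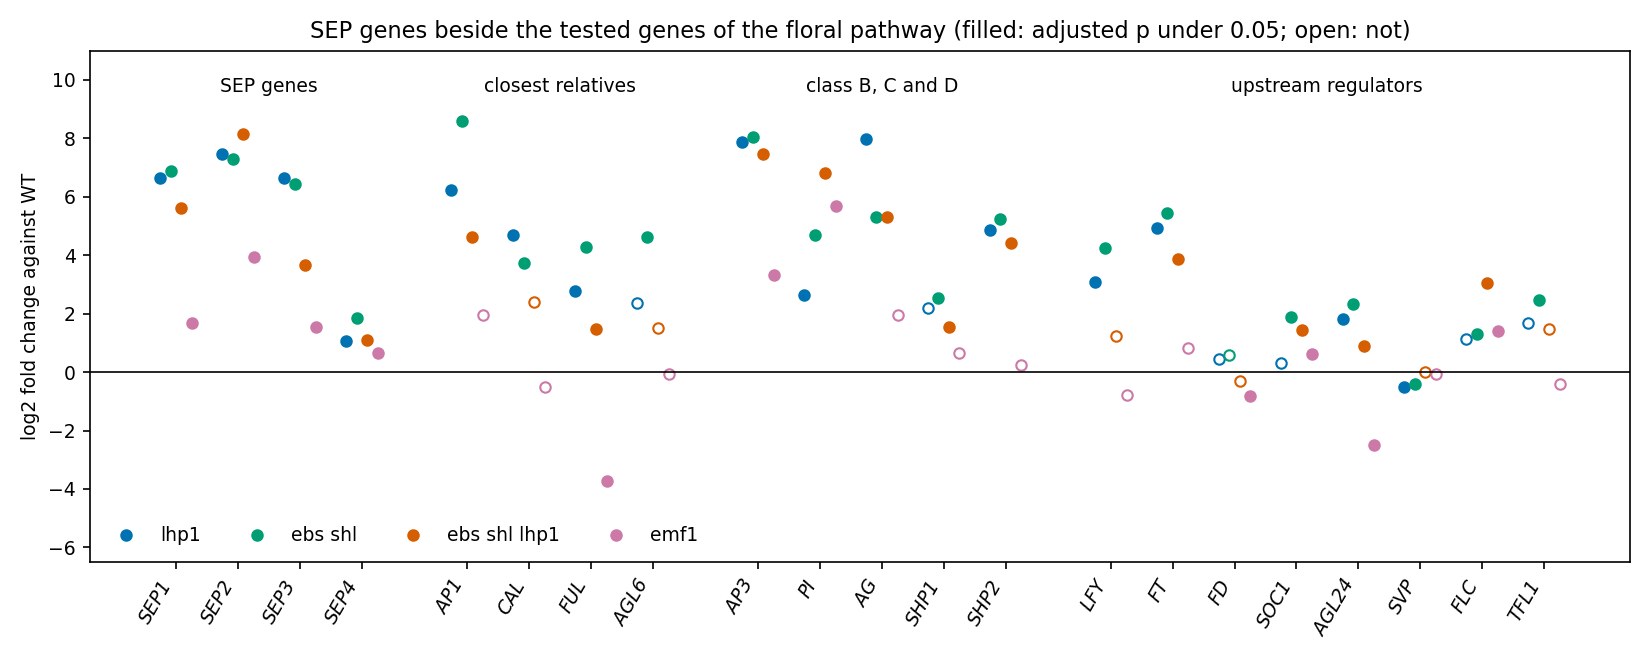
Log2 fold change against WT (vertical axis) of the SEP genes and of the tested members of 3 lists, the closest relatives, the class B, C and D genes and the upstream regulators, in the 4 mutant genotypes (colours); filled points have an adjusted p under 0.05. The emf1 points lay lowest for most genes and reached 5.67 for PI, and AG in lhp1, at 7.98, lay above its values in the other mutants.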

How the data were processed

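Messenger RNA of whole seedlings was sequenced from a stranded mRNA kit, per the labels' protocols. Deposited values are raw read counts per locus, 1 table per library. TopHat2 2.1.1, HTSeq and edgeR with the TAIR10 build are named, per the submitters' processing notes, without further versions or the strand setting. Groups came from sample titles. CPM is counts scaled to 1e+06 per library with TMM factors. In R 4.3.3, edgeR 4.0.16 (limma 3.58.1) fitted all 15 libraries together with 1 mean per genotype, after filterByExpr kept 20477 loci, and its quasi-likelihood F test was adjusted by Benjamini-Hochberg over these loci (threshold 0.05) in 11 comparisons. SE and 95% intervals were derived from each log2 fold change and F statistic. The common biological coefficient of variation was 16.3%. Repeats are biological per the labels. Their counts differed beyond sampling noise in every pair, with chi-square per degree of freedom of 4.37 to 24.3.

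Alternatives were DESeq2 1.42.0, other scalings, no filter, only the genotypes compared, a replicate block and each library left out. Gene names, exon lengths, overlaps and coding identity come from TAIR10.1. The counts use another build, so no coordinates or sequences are given. The members and lists were chosen with earlier results of these data known. Named are the SEP genes, the 5 tested genes that correlate best with each (log2 CPM, prior count 2), and, per list and comparison with WT, the called members with the highest and lowest log2 fold change. AP3, AG, FT, SHP1, SHP2 and LFY within single genotypes, AP1, AG, AP3 and FLC outside that rule, and the overlapping neighbour were named after their values were seen.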

Additional observations from a re-analysis of the deposited data

Results flagged for a closer look

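The step from ebs shl to the libraries labelled ebs shl lhp1 differed from the step from WT to lhp1 for each SEP gene, by a test of the difference itself in edgeR. The difference was -7.92 on the log2 scale for SEP1, -6.63 for SEP2, -9.41 for SEP3 and -1.82 for SEP4, and it kept its direction and passed under each of the 21 alternatives for each gene. It was negative for 30.3% of all tested genes. A gene that rises strongly in both lhp1 and the labelled double mutant gets a large negative difference unless the labelled triple mutant goes far beyond both. The value of SEP2 is therefore no fall, since its mean was highest in the labelled triple mutant (14.1 CPM, against 7.83 in the labelled double mutant and 8.87 in lhp1). The labelled triple mutant was the only group of the 4 with the miRNeasy Micro kit, so kit and genotype cannot be told apart in these values. Its LHP1 transcript was at 21.1 CPM, against 19.8 in WT and 10.5 in lhp1, so that it carries the lhp1 lesion rests on the label.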

How the results depend on the processing

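Of 922 SEP fold changes under alternatives, 899 kept their direction and their side of the threshold. In emf1 against WT 2 SEP genes passed, not 4, when only those genotypes were fitted, since SEP1 and SEP2 then missed the filter on low counts. Leaving out single libraries gave 2 to 4, with 2 only without emf1 library 2. The log2 difference of SEP4 between the labelled triple mutant and lhp1, 0.02 and not called, was -0.15 with upper-quartile scaling, which moved the median of all genes by -0.17 to -0.18 in the comparisons across kits, and ran from -0.10 to 0.12 with single libraries left out. With plain library sizes the lhp1 levels were 37.9, 9.85 and 148 CPM for SEP1, SEP2 and SEP3, and the emf1 levels 3.28 and 15.7 CPM for SEP3 and SEP4. Without scaling for length the SEP1 shares were 17%, 19.1% and 22.8% in lhp1 and the labelled double and triple mutants. The SEP2 shares were 4.43% and 3.77% in lhp1 and the labelled double mutant, and the SEP3 shares 66.2%, 56.8% and 16% in lhp1, the labelled double mutant and emf1.

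Over all genes, 269 passed in lhp1 against WT, 524 by DESeq2, 471 with only those genotypes fitted and 144 to 327 with single libraries left out. For the labelled double mutant against WT these were 1604, 1983 by DESeq2, 2342 with only those genotypes fitted and 950 to 1836 with libraries left out. Against lhp1 they were 1036, 1536 by DESeq2, 2274 with only those genotypes fitted and 564 to 1256 with libraries left out. Same-numbered libraries did not deviate together (r = -0.33 to 0.17), and the main fit did not pair them. Libraries with different numbers were not compared in this way, so whether the numbers mark shared handling cannot be told from these values. With a replicate block 207 genes passed in lhp1 against WT, and of the SEP genes the block ended the call of SEP4 between the labelled triple mutant and emf1 (log2 difference 0.42, adjusted p 0.0506). Low counts limit SEP1 and SEP2 in WT and emf1. The causes of these shifts were not tested.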
